A study of Mus musculus with 6 samples.

Results

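The Myc network is a family of basic helix-loop-helix leucine zipper proteins that share the partner Max. Its 9 measured members here are the activators Myc and Mycn, the partner Max, the antagonists Mxd1, Mxd3, Mxd4, Mxi1 and Mnt, and the large Max partner Mga. They were taken by gene symbol from a table of 22098 symbols, with the transcript of the highest mean standing for a symbol, and all 9 were found. The choice of genes used symbols and roles only, and the values entered only the choice of transcript. A filter that asked for a mean of at least 1 RPKM (reads per transcript length and library size) over all libraries kept 10943 genes and 8 of the 9 members. Mycn, with a mean of 0.633 RPKM, did not pass.

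Myc and Mycn bind DNA only as pairs with Max, at the E-box CACGTG and its variants, and raise transcription of genes for ribosome production, nucleotide and amino acid metabolism and entry into the cell cycle. The Mxd proteins, Mxi1 and Mnt compete for Max and for the same sites and recruit the Sin3 corepressor, so that the balance of activators and antagonists sets the output of shared targets. In early B-lymphocyte development Myc is known for driving the growth and division of proB and large preB cells, and Ikaros is known as a factor that restrains Myc in preB cells.

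RNA was sequenced from proB cells sorted out of the bone marrow of C57BL/6 mice aged 6 to 7 weeks. Hardy fraction B and the pool of fractions C and C' (called fraction C) are successive stages of early B-cell development told apart by surface markers. The genotypes were wild type (wt), Ikaros_ZnF1-/- and Ikaros_ZnF4-/-, called ZnF1 and ZnF4 below, homozygous for a mutation of zinc finger 1 or 4 of the DNA-binding domain of the transcription factor Ikaros; no driver that limits the mutation to a cell type is named. Each of the 6 combinations of genotype and fraction had 1 library, so no difference between a pair of libraries has a replicate check, and both mutants share the wt libraries as controls. The labels do not say how many animals entered a library. The spread behind the limma p-values is how far genotype differences vary between the fractions, and not a spread between replicates.

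All 15 proB cell markers were above 0 in every library, with sums from 2820.1 to 6931.0 RPKM. The ZnF1 library of fraction C stood apart, since its 18 granulocyte and monocyte markers summed to 44464.1 RPKM against 1053.8 to 3959.1 in the other libraries, and its 10 erythroid markers to 1582.6 against 25.8 to 130.7. Sex differed with genotype, since Xist was present in the wt libraries (81.3 and 91.9 RPKM) and listed at 0 in the mutants. Ikzf1, which encodes Ikaros, was measured at 150.3 to 431.6 RPKM, and values per transcript do not resolve a removed finger, so it does not check the labels. Depth is unknown. In bulk samples, fewer cells of a type and less RNA per cell cannot be told apart.

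Promoter sequences from RefSeq (GRCm38.p6, from 250 bases before to 50 after a start) were found for 8 of the 9 members. Myc had none, so its promoter could not be searched for the E-box or the Ikaros motif. Among these 8, 3 (37.5%) held the perfect E-box CACGTG, which reads the same on both strands. Of all 27025 genes with such a promoter, 8.09% held it, and of the 7791 among the genes past the filter, 12.4%. These 3 are shown because a Max pair could bind there, with the E-box in capitals; a match is a description of letters and not a bound site. The E-box begins 219 bases before the start of Mxd4, 123 before that of Mnt and 3 before that of Max, and the stretches lie at chr5:34187887-34187960 (minus strand), chr11:74830764-74830843 (plus strand) and chr12:76962246-76962288 (minus strand).
Mxd4: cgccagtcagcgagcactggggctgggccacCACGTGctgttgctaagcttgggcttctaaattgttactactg
Mnt: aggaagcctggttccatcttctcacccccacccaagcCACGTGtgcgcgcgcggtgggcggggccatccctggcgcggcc
Max: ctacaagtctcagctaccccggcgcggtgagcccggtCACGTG
The core TGGGAA of the Ikaros motif, searched on both strands, was in 2 of the 8 member promoters (Mxd3 and Mxi1; 25.0%) and in 28.3% of all genes with a promoter and 26.2% of those past the filter.

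Myc, the activator that dominates in dividing lymphocyte progenitors, stood at 48.7, 25.7 and 5.5 RPKM in the fraction B libraries of wt, ZnF1 and ZnF4, and at 91.7, 22.5 and 11.3 in those of fraction C. Both wt libraries were thus above both ZnF1 libraries, and both ZnF1 libraries above both ZnF4 libraries. How many of all genes keep the genotypes apart in this way was not counted, for Myc, the other members or any other gene named below. Its level spanned 14.3-fold over the 6 libraries. In wt Myc was the most abundant of the 9 members in each fraction, in ZnF1 it ranked 4 and 5, and in ZnF4 it ranked 8 and 6. Among all genes past the filter, 89.4% and 95.2% stood below Myc in the wt libraries of fractions B and C, 72.6% and 68.4% in ZnF1, and 31.8% and 48.1% in ZnF4.

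In ZnF4, Myc was 7.65-fold lower than in wt in fraction B and 7.54-fold lower in fraction C. These are folds of RPKM + 1, the scale used for all folds of single genes here unless plain RPKM is named. Genes with a lower ratio made up 0.439% of all genes in fraction B and 0.11% in fraction C. Genes at least 2-fold lower made up 9.81% (fraction B) and 6.12% (fraction C) of all genes, with 4.73% so in both, and genes at least 2-fold higher 3.7% and 3.55%. Of the 8 members, Myc was the only 1 at least 2-fold lower, in both fractions, and 0 were 2-fold higher. The median of the 8 was log2 0.22 in fraction B and 0.17 in fraction C (5 higher and 3 lower in each), beside -0.09 and -0.05 for all genes. The limma fit used all 6 libraries and a term each for genotype and fraction, and gave a difference of -2.92 on the log2 scale (SE 0.336), lower in 2 of 2 fractions, with an adjusted p of 0.0896 that did not pass 0.05. The same difference passed in limma with only the 4 wt and ZnF4 libraries (adjusted p = 0.00322, 1 residual degree of freedom), where 31.9% of all genes passed. Leaving out either ZnF1 library gave the same log2 -2.92 and an SE of 0.097 as well, because the spread then comes from those 4 libraries too. The difference was thus not checked more than once by these fits. It did not pass without any 1 of the wt or ZnF4 libraries, with adjusted p from 0.326 to 0.953.

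Markers of other cell types were lower beside Myc in ZnF4. For comparison, 9.81% (fraction B) and 6.12% (fraction C) of all genes were at least 2-fold below wt, with all-gene medians of log2 -0.09 and -0.05. Of the NK and T cell markers past the filter, 11 of 13 were at least 2-fold below wt in fraction B and 8 of 13 in fraction C (medians log2 -2.36 and -1.05), with sums of 36.1 and 64.2 RPKM in ZnF4 and 130.2 and 106.6 in wt, and 8 of the 14 listed at 0 in the ZnF4 library of fraction B, among them Cd3e and Ncr1. Plasmacytoid dendritic cell markers had medians of -2.25 and -1.27 (5 of 7 at least 2-fold lower in each fraction), erythroid markers -1.70 and -0.90 (10 and 3 of 10), and granulocyte and monocyte markers -1.95 and -0.62 (18 and 6 of 18). The proB markers had medians of 0.38 and 0.56. The part of these cells in the Myc values was not tested.

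For the ZnF4 to wt comparison limma called 3 of all genes (0.0274%; Eif2s3y, Xist and Tsix, on the sex chromosomes) and 0 of the 8 members, with 2 members (Myc and Mxd4) and 1930 genes at an unadjusted p under 0.05. Without the ZnF1 library of fraction C it called 3453 genes (31.6%) and 4 of the 8 members. Those 4 were Myc, Mxd1 (log2 -0.66, adjusted p = 0.0412), Mxd4 (log2 0.53, adjusted p = 0.0241) and Mxi1 (log2 0.61, adjusted p = 0.0262). With that library left out, the remaining ZnF1 library has no partner to vary against, so the spread comes from the wt and ZnF4 libraries alone.

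In ZnF1, Myc was 1.86-fold lower than in wt in fraction B and 3.94-fold lower in fraction C. Genes with a lower ratio made up 2.81% of all genes in fraction B and 0.585% in fraction C. None of the 8 members was 2-fold from wt in fraction B, beside 2.07% of all genes higher and 2.21% lower. In fraction C, 2 members were at least 2-fold higher (Mxd1 and Mxi1, beside 12.6% of all genes) and Myc was lower (beside 7.39%). The fraction C value rests on the library with granulocyte and monocyte markers at 44464.1 RPKM, and rescaling on 14 B-lineage genes moved it from log2 -1.98 to -1.38, and that of fraction B from -0.90 to -1.19. The limma difference of log2 -1.44 (SE 0.336, lower in 2 of 2 fractions) had an adjusted p of 0.44. It was log2 -0.89 without the ZnF1 library of fraction C (adjusted p = 0.0869 in limma) and -1.99 without that of fraction B (adjusted p = 0.0059, in a setting that called 37.6% of all genes). Both of these fits leave 1 ZnF1 library, so their spread comes from the wt and ZnF4 libraries alone. Their adjusted p-values and the share of genes called therefore say nothing of variation within ZnF1. The fit without fraction B rests, for ZnF1, on the library with granulocyte and monocyte markers at 44464.1 RPKM. For ZnF1 against wt over all 6 libraries, limma called 3 of all genes (0.0274%) and 0 of the 8 members. An unadjusted p under 0.05 was found for 2 members (Myc and Mxi1) and 1018 genes. Between the mutants, ZnF4 stood 4.11-fold below ZnF1 in fraction B and 1.91-fold in fraction C. That difference (limma log2 -1.49) had an adjusted p of 0.104. It was -2.03 without the ZnF1 library of fraction C (adjusted p = 0.00576 in limma, with 24.6% of all genes called) and -0.94 without that of fraction B (adjusted p = 0.00802, with 37.5% called). These fits too leave 1 ZnF1 library, so their adjusted p-values and shares called say nothing of variation within ZnF1. Over all 6 libraries limma called 199 of all genes (1.82%, with 1.14% higher and 0.676% lower in ZnF4) and 0 of the 8 members. An unadjusted p under 0.05 was found for 1 member (Myc) and 2489 genes.

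The table holds a second Myc entry of 2399 bases, next to the entry of 2402 bases used above, and how reads shared by the 2 entries were divided is not given in the sources used here. The second entry stood at 14.6, 8.5 and 1.4 RPKM in the fraction B libraries of wt, ZnF1 and ZnF4, and at 30.3, 8.0 and 3.7 in those of fraction C. Its order over the genotypes was that of the first, and it was 6.5-fold and 6.66-fold below wt in ZnF4.

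**Figure D1:**
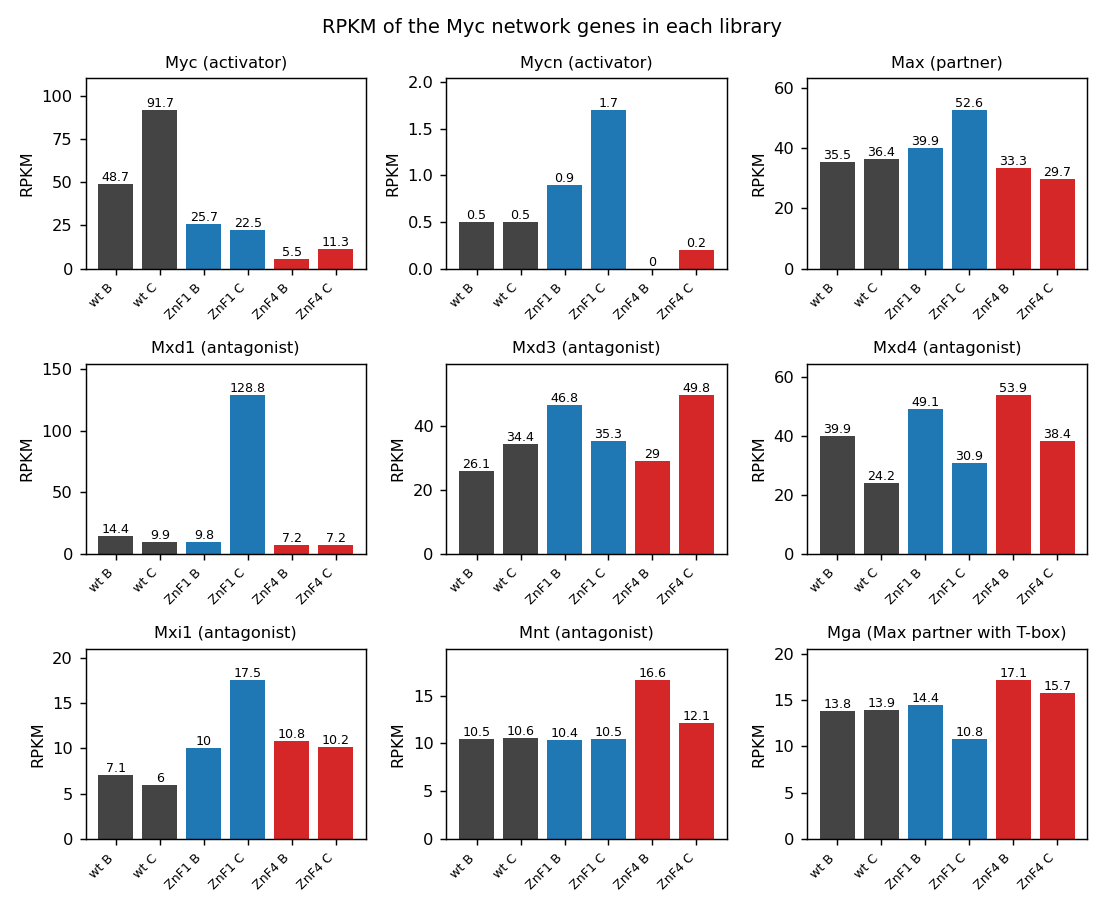
RPKM of each of the 9 Myc network genes (a panel each, with its own vertical axis starting at 0) in the 6 libraries, coloured by genotype, with 1 bar per library and the value on top. Myc runs from 91.7 RPKM in the wt library of fraction C to 5.5 in the ZnF4 library of fraction B, and Mxd1 reaches 128.8 in the ZnF1 library of fraction C alone.

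Mycn, the activator best known from neural and early progenitors, was near the lower limit of the table at 0.5, 0.9 and 0 RPKM in the fraction B libraries of wt, ZnF1 and ZnF4, and at 0.5, 1.7 and 0.2 in those of fraction C. The values are rounded to 0.1 RPKM, and no fold is read from them. Mycl1, the remaining Myc paralogue and not a member, stood at 1.5, 2.0 and 0.2 RPKM in the same order for fraction B, with 0.6, 2.2 and 0.1 for fraction C. Both minor paralogues thus stood far below Myc, too near the lower limit for an order of genotypes to be read.

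Max, the obligate partner, stood at 35.5, 39.9 and 33.3 RPKM in the fraction B libraries of wt, ZnF1 and ZnF4, and at 36.4, 52.6 and 29.7 in those of fraction C. Against wt it was 1.06-fold (fraction B) and 1.22-fold (fraction C) lower in ZnF4, 1.43-fold higher in the ZnF1 library of fraction C, and its limma differences from wt did not pass (ZnF4 log2 -0.19, SE 0.202, adjusted p = 0.651; ZnF1 log2 0.34, SE 0.202, adjusted p = 0.56). Myc RNA per Max RNA was 1.37 and 2.52 in wt (fractions B and C), 0.644 and 0.428 in ZnF1, and 0.165 and 0.38 in ZnF4. The summed RNA of the other members over Max stayed between 4.19 and 5.25.

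Mxd1, an antagonist known to rise when myeloid cells differentiate, stood at 14.4, 9.8 and 7.2 RPKM in the fraction B libraries of wt, ZnF1 and ZnF4, and at 9.9, 128.8 and 7.2 in those of fraction C. The ZnF1 library of fraction C was alone at this height, 11.9-fold above wt of the same fraction and 12-fold above its own fraction B. This is the library with granulocyte and monocyte markers at 44464.1 RPKM, against 2786.8 in wt of fraction C and 1718.0 in ZnF1 of fraction B, and with erythroid markers at 1582.6 against 96.6 and 59.5. The part of these cells in the Mxd1 level was not tested. Of all genes, 12.6% were at least 2-fold higher in that library than in wt and 10.1% at least 2-fold higher than in ZnF1 fraction B. In the 5 other libraries Mxd1 stayed between 7.2 and 14.4 RPKM, with both ZnF4 libraries lowest, 1.88-fold and 1.33-fold below wt. Its limma difference of log2 1.53 for ZnF1 against wt (SE 1.067, adjusted p = 0.582) turned to -0.39 without that library.

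The 5 genes with the profile closest to Mxd1 over the 6 libraries, by the distance between centred log2(RPKM + 1) values, were Ces2g, Mfsd2b, Slc6a9, Tal1 and Gpr141. Their Pearson r with Mxd1 was 0.996 to 0.999, over 6 libraries and mostly fixed by the same single high library. Tal1, a transcription factor of blood progenitors and red cell precursors, stood at 31.9 RPKM there and at 0.8 to 3.0 elsewhere.

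Mxi1, another Sin3-recruiting antagonist, stood at 7.1, 10 and 10.8 RPKM in the fraction B libraries of wt, ZnF1 and ZnF4, and at 6.0, 17.5 and 10.2 in those of fraction C. Both wt libraries were lower than all 4 mutant libraries, a split whose share over all genes was not counted. The folds over wt were 1.46 and 1.60 in ZnF4 and 1.36 in the ZnF1 library of fraction B, while that of fraction C, which holds the myeloid and erythroid RNA, was 2.64-fold higher. The limma adjusted p was 0.368 for ZnF4 against wt and 0.519 for ZnF1 against wt. After B-lineage rescaling the ZnF4 folds shrank to log2 0.10 and 0.26, in a setting where the median of all genes was -0.51 and -0.45.

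Mxd4, an antagonist linked to resting and differentiating cells, stood at 39.9, 49.1 and 53.9 RPKM in the fraction B libraries of wt, ZnF1 and ZnF4, and at 24.2, 30.9 and 38.4 in those of fraction C. Within each fraction the order was wt, ZnF1, ZnF4, and within each genotype fraction C was below fraction B. In ZnF4 it was 1.34-fold and 1.56-fold higher than in wt (limma log2 0.53, SE 0.162, adjusted p = 0.22), and under B-lineage rescaling log2 -0.06 and 0.19, so that its direction in fraction B turned. Mxd4 had the highest mean of the antagonists at 39.4 RPKM, and made up 45.9% of their summed RNA in ZnF4 of fraction B against 40.7% in wt.

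Mxd3, an antagonist found in dividing progenitors, stood at 26.1, 46.8 and 29.0 RPKM in the fraction B libraries of wt, ZnF1 and ZnF4, and at 34.4, 35.3 and 49.8 in those of fraction C. The highest library was thus ZnF1 in fraction B and ZnF4 in fraction C, and the genotypes overlapped. No Mxd3 difference passed in limma (adjusted p = 0.614 for ZnF4 against wt and 0.595 for ZnF1 against wt).

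Mnt, the antagonist expressed most widely across tissues, stood between 10.4 and 10.6 RPKM in the 4 wt and ZnF1 libraries and at 16.6 and 12.1 in the ZnF4 libraries of fractions B and C. Mga, a Max partner that also carries a T-box DNA-binding domain, stood at 13.8, 14.4 and 17.1 RPKM in the fraction B libraries of wt, ZnF1 and ZnF4, and at 13.9, 10.8 and 15.7 in those of fraction C. Both had their highest 2 values in ZnF4, by folds of 1.53 and 1.13 (Mnt) and 1.22 and 1.12 (Mga) over wt. Neither passed in limma (adjusted p = 0.384 and 0.557 for ZnF4 against wt), and under B-lineage rescaling the Mga folds and the Mnt fold of fraction C turned to log2 -0.17, -0.27 and -0.25.

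**Figure D2:**
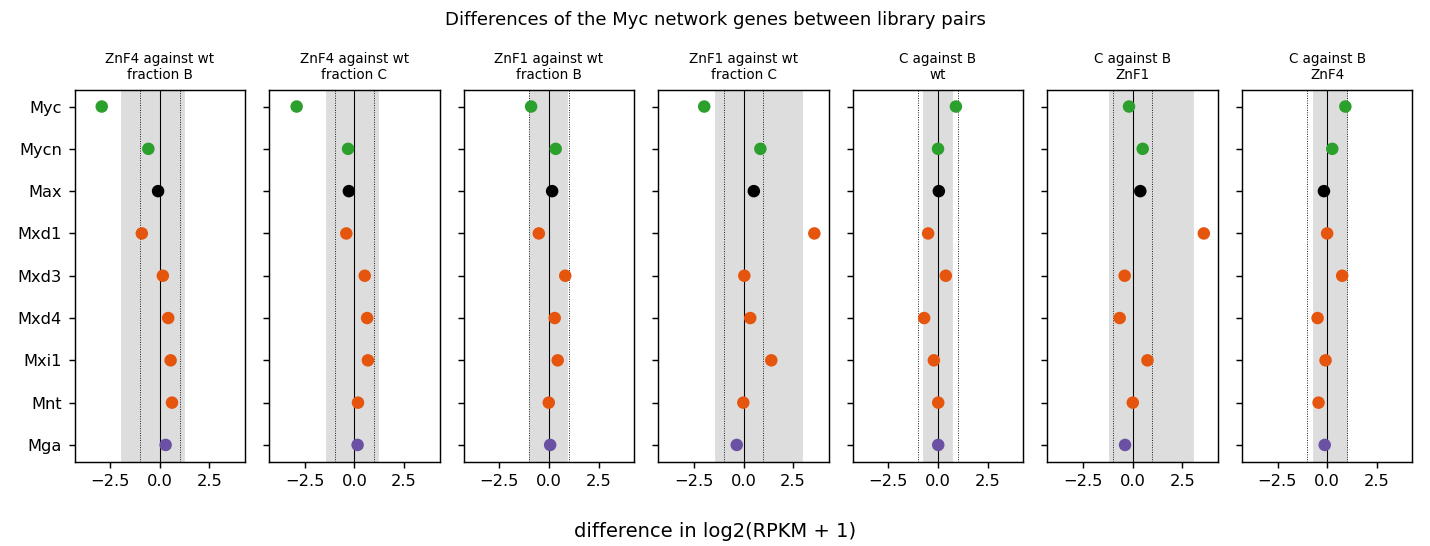
Difference in log2(RPKM + 1) of each member for 7 pairs of libraries (a panel each, named above it), with activators in green, Max in black, antagonists in orange and Mga in purple. The grey band holds the middle 95% of all 10943 genes and dotted lines mark 2-fold. Myc lies left of the band in ZnF4 against wt in both fractions and in ZnF1 against wt in fraction C. It lies right of the band in fraction C against B of wt. Mxd1 lies right of it in the panels that hold the ZnF1 library of fraction C.

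The summed RNA of the activators was set against that of the 5 antagonists, which is possible because RPKM is per transcript length, and this ratio within a library does not move with any rescaling of libraries. The activators summed to 49.2, 26.6 and 5.5 RPKM in the fraction B libraries of wt, ZnF1 and ZnF4, and to 92.2, 24.2 and 11.5 in those of fraction C. Antagonists summed to 98, 126.1 and 117.5 RPKM in fraction B and to 85.1, 223.0 and 117.7 in fraction C. The ratio of activators to antagonists was 0.502, 0.211 and 0.0468 for fraction B, with 1.08, 0.109 and 0.0977 for fraction C, so that only the wt library of fraction C held more activator than antagonist RNA.

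In ZnF4 the ratio was 10.7-fold (fraction B) and 11.1-fold (fraction C) below that of wt, with the activator sum carrying most of it. Folds of this ratio are of plain RPKM, with no 1 added. On that scale Myc alone in ZnF4 was 0.113 (fraction B) and 0.123 (fraction C) of its wt level. In ZnF1 it was 2.38-fold below wt in fraction B and 9.98-fold in fraction C. The second of these holds the high Mxd1 of the library with myeloid and erythroid RNA, and without Mxd1 it was 4.77-fold. With Mga counted among the antagonists the ZnF4 ratios were 10.8-fold lower in both fractions. The ratio in the wt library of fraction C was then 0.931, so that with 1 transcript per symbol no library held more activator than antagonist RNA. This depended on the transcripts counted. With all transcripts of a symbol summed, and without Mga, the ratio in that library was 1.44 (122.5 against 85.2 RPKM). Summed transcripts were not combined with Mga. These are RNA ratios and say nothing of protein. They rest on 1 library each and have no test.

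**Figure D3:**
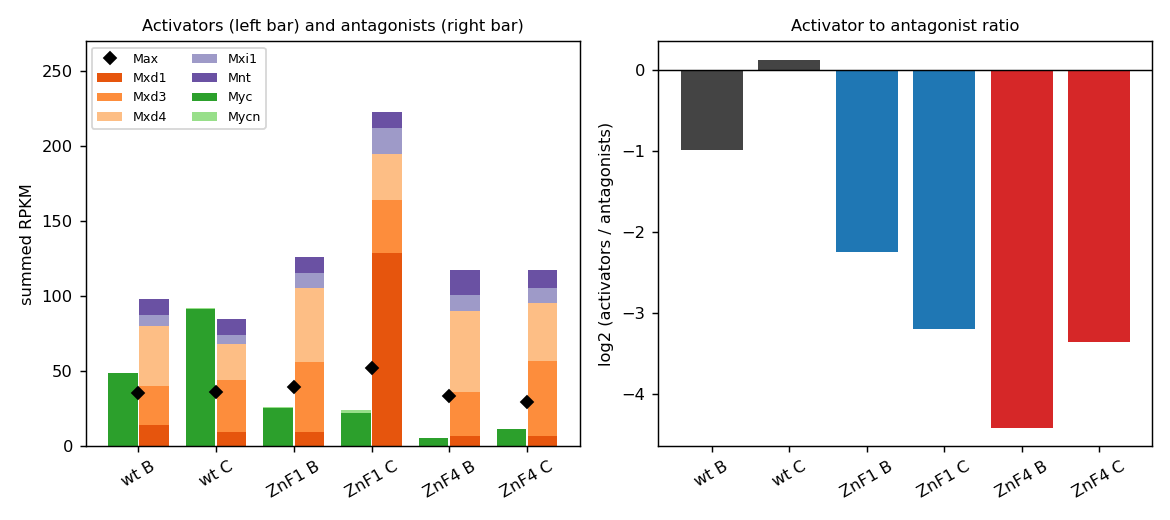
Left, summed RPKM of the activators (left bar of each pair, Myc and Mycn stacked) and of the antagonists (right bar, 5 genes stacked) with Max as a diamond, in the 6 libraries. Right, log2 of activators over antagonists, which is above 0 in the wt library of fraction C alone and lowest in the ZnF4 library of fraction B.

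From fraction B to fraction C, Myc was 1.87-fold higher in wt and 1.89-fold higher in ZnF4, and 1.14-fold lower in ZnF1. The step in ZnF1 turned with the scaling: after B-lineage rescaling Myc was higher in fraction C in all 3 genotypes, by log2 1.0 in wt, 0.80 in ZnF1 and 1.0 in ZnF4, in a setting where the median of all genes was 0.14, 0.77 and 0.20. Genes at least 2-fold higher made up 0.338% of all genes in wt, 10.1% in ZnF1 and 2.76% in ZnF4. Myc, just under 2-fold in wt and ZnF4, was not among them, and Mxd1 in ZnF1 was the only member that was. That Myc fell short depended on the scale and the transcript. Its ratio of plain RPKM in ZnF4 was 2.05, and the second Myc entry was 2.01-fold higher in wt. With a pseudocount of 0.25, and with summed transcripts, 1 member was at least 2-fold higher in ZnF4.

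Mxd4 was the only member lower in fraction C than in B by over 1.25-fold in each genotype, by 1.62-fold in wt, 1.57-fold in ZnF1 and 1.39-fold in ZnF4, although in ZnF1 the direction turned under B-lineage rescaling (log2 0.34). Its limma difference of log2 -0.61 (SE 0.132, lower in 3 of 3 genotypes) had an unadjusted p of 0.0077 and an adjusted p of 0.853. For C against B limma called 0 of all genes (0.0%) and 0 of the 8 members, with 1 member (Mxd4) and 511 genes at an unadjusted p under 0.05. The activator to antagonist ratio was 2.16-fold higher in fraction C than in B in wt and 2.09-fold higher in ZnF4. In ZnF1 it was 1.94-fold lower, and 1.12-fold higher when Mxd1 was left out.

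Genes known as Myc targets were grouped by function in lists chosen with earlier results of these data known. The ribosome biogenesis list holds 30 nucleolar proteins and RNA polymerase I factors, the metabolism list 35 enzymes and transporters, and another list 17 genes of the cell cycle and translation. All of these passed the filter. In ZnF4 against wt the ribosome biogenesis genes had a median log2 difference of -0.73 in fraction B and -0.98 in fraction C, beside -0.09 and -0.05 for all genes, with 29 and 30 of 30 lower. Metabolism genes had medians of -0.94 and -0.81, with 33 of 35 lower in each fraction, and the cell cycle and translation genes -0.70 and -0.45, with 16 of 17 lower in each.

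Of the ribosome biogenesis genes, 10 of 30 were at least 2-fold lower in both fractions, as were 13 of 35 metabolism genes and 1 of 17 in the cell cycle and translation list, against 4.73% of all genes. In limma over all 6 libraries 0 genes of the 3 lists passed. An unadjusted p under 0.05 was found for 15 of 30, 17 of 35 and 4 of 17, beside 1930 of all 10943 genes. Without the ZnF1 library of fraction C, limma called 22 of 30 and 25 of 35 as lower and 12 of 17 as lower and 1 as higher, beside 19.3% of all genes called as lower and 12.2% as higher. Mitosis genes, which follow the share of dividing cells, summed to 790.4 RPKM in ZnF4 and 1254.0 in wt in fraction B and to 1802.1 and 1620.9 in fraction C, and granulocyte and monocyte markers to 1053.8 and 3959.1, then 1814.9 and 2786.8. The part of either in the target values was not tested.

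Srm, spermidine synthase of the polyamine pathway, was the gene with the profile closest to that of Myc among all genes of at least 2-fold span (Pearson r 0.987 over 6 libraries, given as a description). It stood at 23.6, 19.3 and 4.8 RPKM in the fraction B libraries of wt, ZnF1 and ZnF4, and at 50, 17.4 and 10.1 in those of fraction C. Both ZnF4 libraries were the lowest, by 4.24-fold and 4.59-fold below wt (limma log2 -2.14, SE 0.348, adjusted p = 0.117). Srm was picked here for its likeness to Myc over these same libraries. Its order and folds therefore follow from that choice and are no separate evidence. The next closest profiles were those of Smyd2, a lysine methyltransferase, Eps8l2, Pde9a, a cyclic GMP phosphodiesterase, and Dctd, the deaminase of deoxycytidylate, with r from 0.958 to 0.983.

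Slc7a5, a chain of the leucine transporter, was 3.25-fold and 3.50-fold below wt in ZnF4 (31.2 and 8.9 RPKM in fraction B, 57.4 and 15.7 in fraction C; limma log2 -1.75, adjusted p = 0.0896). Shmt1, a serine hydroxymethyltransferase of the folate cycle, was 3.83-fold and 3.44-fold lower (31.9 and 7.6 RPKM, 64.1 and 17.9). Gnl3, the nucleolar GTPase nucleostemin, was 2.99-fold and 3.08-fold lower (43.5 and 13.9 RPKM, 80.1 and 25.3), and Ncl, nucleolin, 2.89-fold and 2.79-fold lower (111.1 and 37.8 RPKM, 183.5 and 65.2). On the other side, Slc1a5, a glutamine transporter, was 1.43-fold and 1.20-fold higher, and Ubtf, a factor of RNA polymerase I, was within 1.15-fold of wt. The target lists thus held exceptions among genes of the same functions.

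Ldha, the lactate dehydrogenase subunit of glycolysis and a textbook E-box target, was 3.20-fold and 2.75-fold below wt in ZnF4 (44.7 and 13.3 RPKM in fraction B, 88.5 and 31.6 in fraction C), while ZnF1 stood at 65.1 and 78.3. It has processed pseudogenes, so its level is uncertain. Its promoter is shown because, of 16 target genes with an E-box before the start, Ldha was lowest in ZnF4 against wt (mean log2 -1.57). The choice used its level, so no link between the E-box and the difference can be read from it. The promoter holds a pair of perfect E-boxes, which begin 145 and 48 bases before the start. The stretch lies at chr7:46845622-46845798 of GRCm38.p6 on the plus strand.
Ldha: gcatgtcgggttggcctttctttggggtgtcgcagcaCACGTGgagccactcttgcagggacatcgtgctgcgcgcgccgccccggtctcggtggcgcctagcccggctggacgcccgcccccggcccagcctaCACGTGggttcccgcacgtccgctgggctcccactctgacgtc
Of the promoters found for each list, CACGTG was in 6 of 24 for ribosome biogenesis (25.0%), 8 of 27 for metabolism (29.6%) and 6 of 15 for cell cycle and translation (40.0%), beside 12.4% for genes past the filter.

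In ZnF1 the target lists lay near wt in fraction B and below it in fraction C. Ribosome biogenesis genes had a median log2 difference of -0.07 in fraction B and -1.06 in fraction C, metabolism genes 0.02 and -0.78 likewise, and cell cycle and translation genes 0.10 and -0.77, beside 0.04 and -0.16 for all genes. Myc itself was 1.86-fold below wt in the fraction B library, in which 0 of the 30 ribosome biogenesis genes and 0 of the 35 metabolism genes were 2-fold lower, beside 2.21% of all genes. In fraction C, 17 of 30 and 11 of 35 were 2-fold lower, beside 7.39% of all genes, in the library with myeloid and erythroid RNA and with proB markers at 2820.1 RPKM against 3713.4 in wt. After B-lineage rescaling those medians were -0.48 and -0.21, and 4 of 30 and 1 of 35 were 2-fold lower, in a setting where the median of all genes was 0.42.

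Ccnd2, the cyclin D2 that starts the cell cycle, had another pattern. It stood at 36.7, 16.7 and 25.1 RPKM in the fraction B libraries of wt, ZnF1 and ZnF4, and at 81.6, 18.1 and 61.2 in those of fraction C, lowest in ZnF1 by 2.13-fold and 4.32-fold below wt. Between the mutants Pkm2, the growth-linked pyruvate kinase, was the only gene of the 3 lists that passed in limma over all 6 libraries (ZnF4 against ZnF1 log2 -1.63, SE 0.203, adjusted p = 0.0487), beside 1.82% of all genes. It stood at 40.0, 47.4 and 17.5 RPKM (wt, ZnF1 and ZnF4) for fraction B, with 56.2, 93.5 and 24.8 for fraction C. Both ZnF4 libraries were thus the lowest, an order whose share over all genes was not counted.

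From fraction B to C the target lists stood higher in wt and ZnF4. In wt 30 of 30 ribosome biogenesis genes and 34 of 35 metabolism genes were higher in fraction C (medians 0.63 and 0.63, beside 0.06 for all genes), and in ZnF4 27 of 30 and 31 of 35 (0.44 and 0.58, beside 0.11). In ZnF1 29 of 30 and 25 of 35 were lower (medians -0.39 and -0.19, beside -0.16), and after B-lineage rescaling 30 of 30 and 35 of 35 were higher (0.59 and 0.77, beside 0.77). The direction of this step in ZnF1 therefore depended on the scaling, as for Myc.

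**Figure D4:**
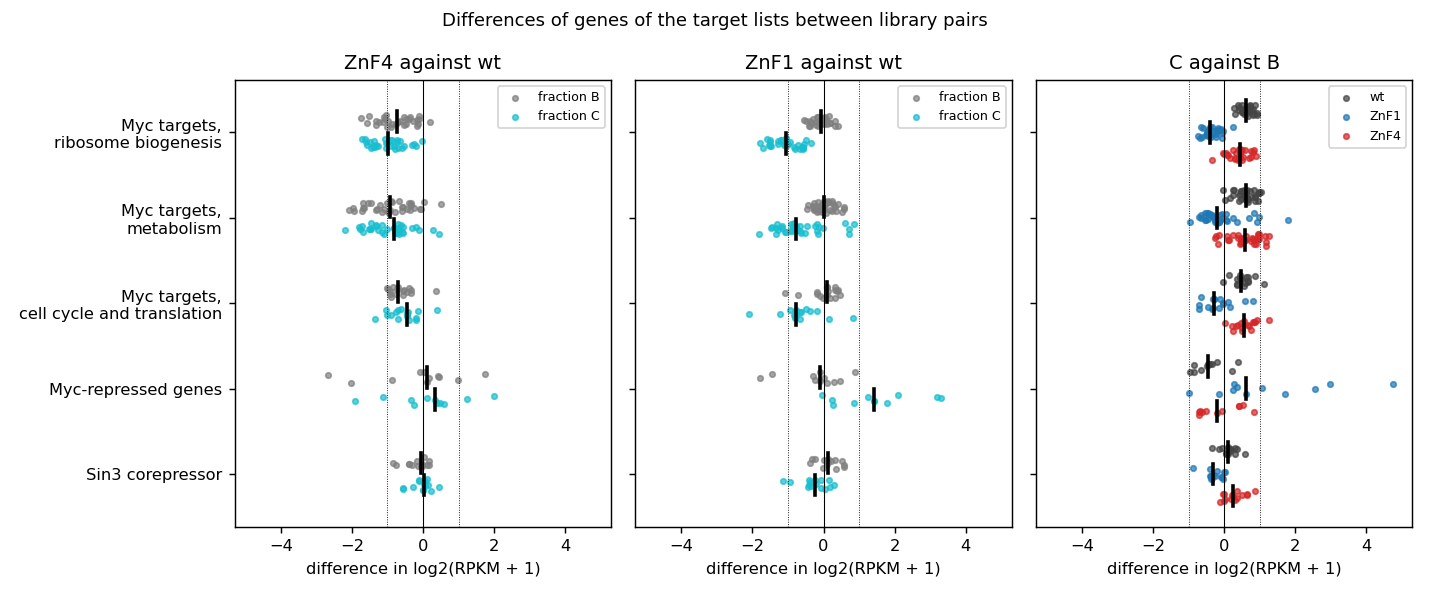
Difference in log2(RPKM + 1) of each gene past the filter in 5 lists (a point each), for both mutants against wt by fraction and for fraction C against B by genotype. Black strokes are medians and dotted lines mark 2-fold; in ZnF4 against wt the medians of the ribosome biogenesis list are -0.73 and -0.98 and those of the Sin3 corepressor list -0.05 and 0.02.

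Genes known to be repressed by Myc did not form a single pattern in ZnF4. Of 14 on the list, 11 passed the filter, with medians of log2 0.11 and 0.35, which B-lineage rescaling turned to -0.33 and -0.09. Btg1, an antiproliferative protein, was 3.34-fold higher in ZnF4 than wt for fraction B (14.7 and 51.5 RPKM in wt and ZnF4) and 3.97-fold for fraction C (7.7 and 33.5), and Btg2, its relative, was 1.97-fold and 2.37-fold higher. Cdkn1a, the inhibitor p21 of cyclin-dependent kinases, went the other way, from 31.0 to 6.9 RPKM and from 23.5 to 10.3 (4.05-fold and 2.17-fold lower), and Cdkn1b, the inhibitor p27, was within 1.12-fold of wt. None of the 11 passed in limma over all 6 libraries for ZnF4 against wt. An unadjusted p under 0.05 was found for 3 of them, beside 1930 of all 10943 genes.

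The machinery around the network was measured too. The 15 genes of the Sin3 corepressor, through which Mxd proteins act, had medians of log2 -0.05 and 0.02 (-0.53 and -0.43 after B-lineage rescaling), and 0 of them were 2-fold apart in either fraction, beside 3.7% and 3.55% of all genes higher and 9.81% and 6.12% lower. The 15 cofactors of Myc, chromatin and elongation factors, had medians of -0.08 and -0.28 (-0.53 and -0.73 rescaled), with Kat2a, the acetyltransferase GCN5, 2.04-fold and 2.15-fold lower. The 15 genes of Myc protein turnover had medians of 0.00 and 0.04 (-0.48 and -0.41 rescaled). The medians of all genes were -0.09 and -0.05, and -0.51 and -0.45 rescaled. None of these genes passed in limma over all 6 libraries for ZnF4 against wt. An unadjusted p under 0.05 was found for 0 of the Sin3 genes, 2 of the cofactors and 1 of the turnover genes, beside 1930 of all 10943 genes. Btrc, a ubiquitin ligase adaptor, passed for ZnF4 against ZnF1 (2.48-fold and 2.38-fold higher; limma log2 1.28, SE 0.157, adjusted p = 0.0487). It stood at 21.4, 12.2 and 31.7 RPKM in the fraction B libraries of wt, ZnF1 and ZnF4, and at 27.3, 14.6 and 36.1 in those of fraction C, with wt between the mutants.

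Relatives that pair with Mlx, a second hub, are linked to Max through the Mxd proteins and Mnt. Mlx stood between 17.2 and 24.5 RPKM in all libraries, Mlxip, a glucose-sensing partner, at 59.4, 67.6 and 90.1 in the fraction B libraries of wt, ZnF1 and ZnF4, and at 39.3, 37.8 and 51.6 in those of fraction C, and Mlxipl at 0.1 or less. Mlxip had its highest value of each fraction in ZnF4, 1.51-fold and 1.31-fold over wt, and was lower in fraction C in each genotype, as Mxd4 was. Zbtb17, which encodes Miz-1, a partner through which Myc represses genes, stood at 10.5 to 25.9 RPKM and was lowest in the ZnF1 library of fraction C.

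**Figure D5:**
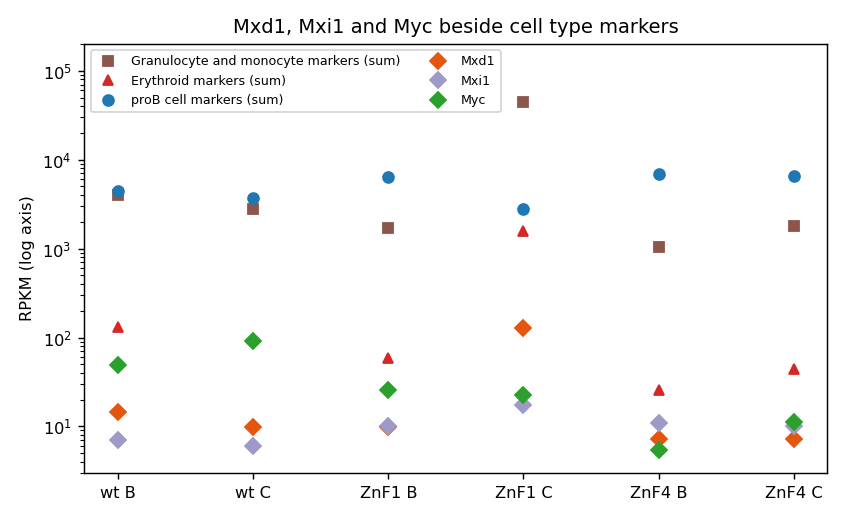
RPKM of Mxd1, Mxi1 and Myc (diamonds) and summed RPKM of 3 lists of cell type markers in the 6 libraries, on a log axis. The granulocyte and monocyte sum, the erythroid sum, Mxd1 and Mxi1 peak in the ZnF1 fraction C library, where the proB sum is lowest, and Myc is lowest in the ZnF4 library of fraction B.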

How the data were processed

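RNA of 6 libraries was measured, 1 for each genotype and fraction. The values are RPKM computed by the authors for RefSeq transcripts, per the file header, and rounded to 0.1; transcript length is the other deposited column. The submitters' processing notes list TopHat, bedtools and mm9, with no version. For the denominator, strand use and shared reads the sources used here give nothing, so values of genes with near-identical copies (among them Ldha, Npm1, Fbl, Hspd1 and Eif4e) are uncertain. Read numbers could not be recovered, since 19.0% to 36.8% of low values were whole multiples against 15.4% to 23.5% by chance, and no interval that needs depth is given.

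Of 26532 entries, 1 had no gene name and was left out, and 0 columns belonged to other samples. The filter asked for a mean RPKM of 1 or more. Folds of genes are differences of log2(RPKM + 1), a scale that understates changes of low genes. Folds of the activator to antagonist ratio use plain RPKM. limma 3.58.1 (R 4.3.3; lmFit, eBayes with trend) was fitted with genotype and fraction as additive terms, 2 residual degrees of freedom, two-sided p-values and Benjamini-Hochberg adjustment over all genes, and was tested on simulated data. Tables were handled with pandas 2.3.3 and figures drawn with matplotlib 3.10.9. Alternatives were a pseudocount of 0.25, no filter, summed transcripts, rescaling on all genes or on 14 B-lineage genes, leaving out each library, and other antagonist sets. The members, lists and tests were chosen with earlier results of these data known. Named genes are all members, at most the 3 highest and 3 lowest of each list in a comparison, list genes at least 2-fold apart in both fractions, and for members that span 2-fold the 5 closest profiles; Nme2, Npm1 and others that the rule allows are not described. Cdkn1b, Mlxipl, Zbtb17 and the marker sums were chosen as background after their values were seen. The erythroid list names 14 genes, of which 10 were counted.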

Additional observations from a re-analysis of the deposited data

Results flagged for a closer look

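Differences that pointed in opposite directions in the 2 fractions or between genotypes, each by at least 1.25-fold, were seen for Mxd1 and Mxd3. For ZnF1 against wt, Mxd1 had a log2 difference of -0.51 in fraction B and 3.57 in fraction C, and from fraction B to C it was -0.50 in wt and 3.59 in ZnF1. Each of the positive values holds the ZnF1 library of fraction C, whose granulocyte and monocyte markers summed to 44464.1 RPKM. Mxd3 was at log2 -0.67 in fraction B and 0.48 in fraction C for ZnF4 against ZnF1, and from fraction B to C at 0.39 in wt, -0.40 in ZnF1 and 0.76 in ZnF4. With 1 library in each group, none of these differences between fractions or genotypes was tested.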

How the results depend on the processing

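Myc was lower in ZnF4 than in wt under all alternatives run, and depth, which is unknown, limits Mycn. Counts of genes called by limma depended on single libraries: leaving out each in turn gave 0 to 3453 for ZnF4 against wt, 0 to 4116 for ZnF1 against wt and 0 to 4109 for ZnF4 against ZnF1. With only the 4 libraries compared the first 2 counts were 3494 and 0. A pseudocount of 0.25 and rescaling on all genes each gave 5 for ZnF4 against wt, and the latter 307 for ZnF4 against ZnF1; without a filter, and with B-lineage rescaling, all 3 counts were 0. Genes at least 2-fold apart in both fractions went from 7.32% to 12.6% for ZnF4 against wt with B-lineage rescaling, and those 2-fold apart between fractions in each of the 3 genotypes from 0.0548% to 0.128% with a pseudocount of 0.25. Without Mxd1, the log2 ratio of activators to antagonists was -2.25 for ZnF1 against wt in fraction C and 0.17 for C against B in ZnF1. The cause was not tested.

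Of 376 limma values of single members under alternatives, 32 had the other sign. B-lineage rescaling turned Mxd3 (-0.13), Mnt (-0.05) and Mga (-0.22) for ZnF4 against wt, Mnt (0.14) and Mga (0.01) for ZnF1 against wt, Mxd4 (-0.41), Mnt (-0.19) and Mga (-0.23) for ZnF4 against ZnF1, and Mnt (0.25) and Mga (0.22) for C against B, and rescaling on all genes turned Mnt (0.04) for ZnF1 against wt. Leaving out each library in turn gave ranges across 0 for Mxd1 (-1.81 to 0.49) and Mxd3 (-0.05 to 0.72) for ZnF4 against wt, and for Mxd1 (-0.39 to 3.45), Mxd3 (-0.06 to 0.91), Mnt (-0.12 to 0.10) and Mga (-0.31 to 0.03) for ZnF1 against wt. The same held for Mxd3 (-0.58 to 0.39) and Mxi1 (-0.76 to 0.14) for ZnF4 against ZnF1, and for Max (-0.06 to 0.21), Mxd1 (-0.25 to 1.79), Mxd3 (-0.01 to 0.57), Mxi1 (-0.14 to 0.34) and Mnt (-0.21 to 0.01) for C against B. No paired analysis was possible because the labels carry no replicate numbers; the limma fit already compares genotypes within fractions through its fraction term.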
